A study of Mus musculus with 4 samples.

Results

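Genes linked to the Th2 response, not all of them particular to it, were followed in unpolarized CD4 T cells with and without ectopic Tox. They were 8 genes of the 24369 listed, taken by symbol from the gene table of each library: the cytokines *Il4*, *Il5*, *Il13*, *Il3*, *Csf2* and *Il9*, the transcription factor *Gata3*, and *Il1rl1*, which encodes the IL-33 receptor ST2. Naïve CD4 T cells from the spleens of wild-type C57BL/6 mice were activated with anti-CD3, anti-CD28 and human IL-2, with no polarizing cytokine. On day 2 they received a retrovirus (RV), either the empty vector MSCV-IRES-eGFP (EV RV) or the same vector carrying *Tox* (Tox RV). On day 5 they were restimulated through the T cell receptor and sorted for GFP, so the cells of both groups carried a virus and made GFP, and Tox came from a viral promoter. There were 2 libraries per group, from 2 individual mice each. The labels list anti-CD28 once more in the place where the methods name human IL-2, and the sources differ on whether restimulation included anti-CD28.

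Th2 cells are the CD4 T cells of the response to helminths and allergens. IL-4 signals through STAT6 to raise GATA3, and GATA3 in turn binds the gene cluster that holds *Il4*, *Il13* and *Il5* and opens it for transcription. These cytokine genes are silent in resting T cells and are transcribed within hours of T cell receptor engagement, through NFAT and AP-1, so that their mRNA reports both the fate of a cell and its recent stimulation. *Il3* and *Csf2* lie farther along the same chromosome and are made by activated T cells of several fates.

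The libraries held 46989997 and 74548723 expected counts in EV RV against 61442264 and 49012254 in Tox RV. *Tox* was at 11.7 and 5.73 TMM-scaled CPM (counts scaled to library size) in EV RV and at 121 and 99.9 in Tox RV, in the direction of the labels (edgeR adjusted p 0.490, DESeq2 adjusted p 3.79e-24). The ribosomal transcript *Rn45s* took 24.7% of the counts in EV RV replicate 1 and 7.14% in Tox RV replicate 2, with the other libraries between. With it left out of the library totals and TMM computed again, the log2 fold change went from -0.36 to -0.37 for *Il4* and from -0.49 to -0.50 for *Gata3*. None of the 7 tested genes of the set was called in either fit, so there was no call to lose. Whether *Rn45s* bears on the cytokine levels was not tested. All 9 T cell markers were present, with *Cd4* at 174 to 250 TPM (a level scaled by transcript length). Other cells that make Th2 cytokines were looked for as well. Of 8 mast cell and basophil markers, 7 were below 1 TPM in each library, and the summed level of the 8 was 3.42 and 1.29 TPM in EV RV and 4.43 and 2.81 TPM in Tox RV. The 6 markers of type 2 innate lymphoid cells summed to 31.4 to 53.8 TPM, most of it *Bcl11b*, which T cells also express, while *Nmur1* and *Klrg1* stayed at or below 0.12 TPM. Of 4 eosinophil markers 3 were below 1 TPM in each library, *Epx* at or below 0.02 TPM, and the summed level of the 4, most of it *Siglecf*, was 2.84 and 2.59 TPM in EV RV and 5.38 and 3.64 TPM in Tox RV. B cell and myeloid markers summed to 1.66 to 2.28 and to 1.41 to 2.73 TPM, and the 6 NK and innate lymphoid markers to 37.5 to 91.1 TPM, highest in EV RV replicate 1. Of these, *Ncr1* and *Klra8* were at 0 throughout. *Klrd1* was at 33.18 and 4.21 TPM in EV RV and 21.86 and 4.26 TPM in Tox RV, and *Klrk1* at 19.85 and 5.46 TPM against 8.65 and 2.44 TPM. *Eomes* went another way and was highest in EV RV replicate 2, at 37.31 and 48.26 TPM against 31.03 and 30.65 TPM. The part of such cells in the cytokine levels was not tested.

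*Il4* and *Il5* were not shown to differ between the groups, because the 2 EV RV libraries lay on either side of both Tox RV libraries. *Il4*, the cytokine that both marks and drives the Th2 fate, stood at 6.09 and 131.88 TPM in EV RV and at 48.47 and 56.35 TPM in Tox RV. *Il5*, the eosinophil growth and survival factor, stood at 0.87 and 17.62 TPM in EV RV and at 5.36 and 6.74 TPM in Tox RV. For both genes EV RV replicate 1 was the lowest library, EV RV replicate 2 the highest, and the Tox RV pair sat close together between them. The *Il4* counts behind these levels were 71 and 2899 in EV RV against 913 and 872 in Tox RV, and those of *Il5* were 30 and 1170 against 306 and 315. The group means were 19.9 ± 25.7 CPM in EV RV and 15.6 ± 1.68 CPM in Tox RV for *Il4* (SD, n = 2 in each group). The log2 fold change, Tox RV over EV RV, was -0.36 (SE 1.13, 95% interval -3.15 to 2.44) for *Il4*, with an adjusted p of 0.956 (edgeR, quasi-likelihood, adjusted by Benjamini-Hochberg over all genes). For *Il5* it was -0.57 (SE 1.11, 95% interval -3.33 to 2.18, adjusted p 0.931 by the same test).

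*Il13*, which drives mucus production and airway and gut responses, was at 16.39 and 122.31 TPM in EV RV and at 153.48 and 106.25 TPM in Tox RV. Only EV RV replicate 1 was low, and the other 3 libraries lay between 106.25 and 153.48 TPM, so the groups overlapped. The means were 46.4 ± 50.8 CPM in EV RV and 90.2 ± 23.2 CPM in Tox RV (SD, n = 2). The log2 fold change was 0.96 (SE 0.84, 95% interval -1.13 to 3.04, edgeR adjusted p 0.897). In bulk RNA, fewer cells that make a cytokine and less of its mRNA per cell cannot be told apart.

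**Figure D1:**
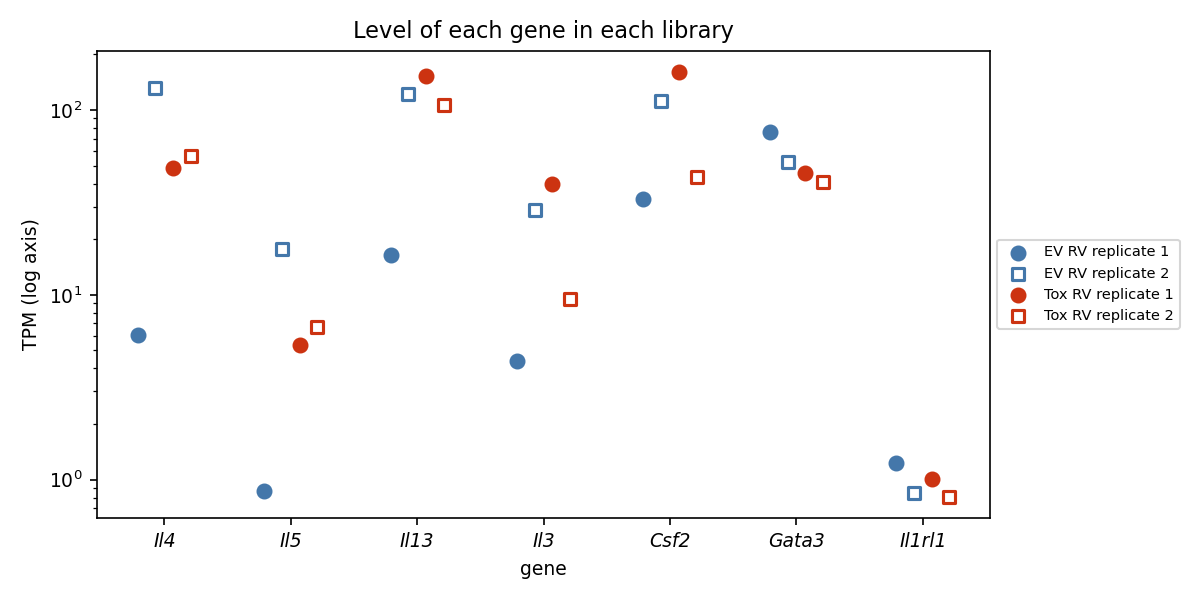
Levels of 7 of the 8 genes in each library, in TPM on a log axis, with EV RV in blue and Tox RV in red (replicate 1 filled, replicate 2 open). EV RV replicate 1 is the lowest point for *Il4*, *Il5*, *Il13*, *Il3* and *Csf2* and the highest for *Gata3* and *Il1rl1*; *Il9*, at or below 0.16 TPM, is not drawn.

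The sequences just upstream of these cytokine genes and of *Gata3* are shown because NFAT, the calcium-dependent factor that restimulation activates, and GATA3 act on such regions. Each is the 200 bases before the gene start that RefSeq gives (mm10), 5′ to 3′ on the gene's strand, and all 8 genes had an entry. Capitals mark GGAAA, the core that NFAT binds, or its complement TTTCC. The positions are chr11:53618666-53618865 (minus strand) for *Il4*, chr11:53720594-53720793 (plus) for *Il5*, chr11:53634703-53634902 (minus) for *Il13*, chr11:54267280-54267479 (minus) for *Il3*, chr11:54249900-54250099 (minus) for *Csf2* and chr2:9878601-9878800 (minus) for *Gata3*. The RefSeq starts of *Csf2* and *Gata3* differ from the outermost starts in GENCODE.
Il4: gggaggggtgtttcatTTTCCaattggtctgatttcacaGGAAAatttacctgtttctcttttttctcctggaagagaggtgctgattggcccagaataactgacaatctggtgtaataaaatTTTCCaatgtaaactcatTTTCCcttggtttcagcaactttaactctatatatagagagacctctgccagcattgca
Il5: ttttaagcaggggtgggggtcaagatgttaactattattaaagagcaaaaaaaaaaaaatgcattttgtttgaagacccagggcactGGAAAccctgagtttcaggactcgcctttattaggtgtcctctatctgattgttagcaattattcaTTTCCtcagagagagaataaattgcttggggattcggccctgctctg
Il13: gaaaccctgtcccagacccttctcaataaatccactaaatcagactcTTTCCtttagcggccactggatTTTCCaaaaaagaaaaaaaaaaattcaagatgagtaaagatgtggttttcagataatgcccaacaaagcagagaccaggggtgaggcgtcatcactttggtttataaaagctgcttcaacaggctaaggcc
Il3: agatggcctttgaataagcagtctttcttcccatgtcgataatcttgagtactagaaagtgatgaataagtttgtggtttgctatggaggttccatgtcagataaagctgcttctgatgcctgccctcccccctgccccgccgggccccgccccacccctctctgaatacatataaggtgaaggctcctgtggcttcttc
Csf2: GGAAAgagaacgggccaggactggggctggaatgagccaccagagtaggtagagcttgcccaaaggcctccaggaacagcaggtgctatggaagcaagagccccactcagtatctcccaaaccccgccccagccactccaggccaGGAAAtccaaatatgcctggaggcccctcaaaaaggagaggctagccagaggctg
Gata3: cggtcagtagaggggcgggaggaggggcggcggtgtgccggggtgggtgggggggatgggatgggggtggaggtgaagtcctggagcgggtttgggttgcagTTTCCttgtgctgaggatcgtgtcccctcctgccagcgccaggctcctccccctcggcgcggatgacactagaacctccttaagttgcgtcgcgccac
The core GGAAA, searched on both strands, was found 4 times upstream of *Il4*, 2 times each for *Il5*, *Il13* and *Csf2*, once for *Gata3* and not for *Il3*. In *Il4* the cores lay 184, 161, 77 and 59 bases before the start. The letters GATA, on both strands, were found 1 time each for *Il5*, *Il13* and *Csf2*, 2 times for *Il3*, and not for *Il4* or *Gata3*. In *Il5* the GATA lay 71 bases before the start, between its GGAAA cores at 113 and 47 bases. Over all 8 genes, 7 windows held GGAAA and 6 held GATA. Both motifs are short and common: 47.5% of the 32817 RefSeq windows of this length held GGAAA and 45.4% held GATA. The AP-1 site TGANTCA was in 5.5% of the windows and among the 8 genes only in that of *Il9*. The exact letters TATAAA, a form of the TATA box, were among the 8 genes only in the window of *Il13*. Other forms of that box were not searched for, so their absence from the other windows is not shown. The *Il4* window holds TATATATA, which the search did not count. A match is a match of letters, and binding was not measured in these files.

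*Il3* and *Csf2* differed more within the Tox RV group than between the groups. *Il3*, a growth factor for mast cells and basophils, was at 4.36 and 28.85 TPM in EV RV and at 39.89 and 9.55 TPM in Tox RV. *Csf2*, which encodes the myeloid growth factor GM-CSF, was at 33.04 and 111.19 TPM in EV RV and at 160.52 and 43.54 TPM in Tox RV. In both genes EV RV replicate 1 was lowest, Tox RV replicate 2 was next and Tox RV replicate 1 was highest. The log2 fold change was 0.62 (SE 0.97, 95% interval -1.78 to 3.02, edgeR adjusted p 0.917) for *Il3* and 0.56 (SE 0.77, 95% interval -1.33 to 2.45, edgeR adjusted p 0.909) for *Csf2*. *Il9*, the cytokine that stimulates mast cells, gave 0 and 3 counts in EV RV against 1 and 0 counts in Tox RV. It was removed by the count filter, and no fold is given because both groups were at or under 3 counts per library. It was not called by DESeq2 or by edgeR with no filter, each of which tested all 8 genes.

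*Gata3* was the only one of the 7 tested genes whose groups did not overlap. It stood at 76.43 and 52.62 TPM in EV RV and at 45.66 and 40.67 TPM in Tox RV, so both Tox RV libraries were below both EV RV libraries. The means were 123 ± 27.7 CPM in EV RV and 87.2 ± 7.18 CPM in Tox RV (SD, n = 2), on 4262 to 7838 counts per library. The log2 fold change was -0.49 (SE 0.21, 95% interval -1.02 to 0.04), with an unadjusted p of 0.0637 and an adjusted p of 0.897 by edgeR, which did not pass the threshold of 0.05. Of all 14143 genes tested, 17.4% had both Tox RV libraries below both EV RV libraries and 36.0% did not overlap in either direction, against 1 of 7 here. With 2 libraries against 2, an exact permutation test, two-sided, cannot go below 0.333.

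*Il1rl1*, by which Th2 cells and type 2 innate cells sense IL-33, was near the lower limit of these data. It was at 1.23 and 0.85 TPM in EV RV and at 1.01 and 0.81 TPM in Tox RV, on 136 to 205 counts per library, and the groups overlapped. The log2 fold change was -0.13 (SE 0.30, 95% interval -0.86 to 0.60, edgeR adjusted p 0.942). In GENCODE the gene has a long form of 5302 bases that encodes the membrane receptor and a short form of 2661 bases that encodes soluble ST2, a decoy for IL-33. The mean transcript length that RSEM assigned was 5088 and 5183 bases in EV RV against 4961 and 5160 bases in Tox RV. The transcript lengths in the authors' RSEM reference are not given in the sources used here. If they were those of GENCODE, the short form could make up at most 8.11% and 4.51% of the transcripts in EV RV against 12.9% and 5.39% in Tox RV.

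None of the 7 tested genes passed an adjusted p of 0.05 by edgeR, where 0% of the 14143 genes tested did. At an unadjusted p under 0.05 there were again 0 of 7, against 3.62% of all genes (512 genes, 152 higher and 360 lower in Tox RV). DESeq2 called 22 of 18183 genes (0.121%), and 0 of the 7 were among them, each with an adjusted p of 1.00. The intervals were wide for the 5 cytokines and did not exclude a change of 4-fold in either direction for *Il4* and *Il5*. Those of *Gata3* and *Il1rl1* were narrower and stayed within -1.02 to 0.60 on the log2 scale.

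The direction for *Il4* and *Il5*, and the size of the difference for *Il13*, depended on which EV RV library was kept, and the direction for *Il3* and *Csf2* also on which Tox RV library was. Without EV RV replicate 2, *Il4*, *Il5* and *Il13* were higher in Tox RV, with log2 fold changes of 3.22, 2.94 and 3.11 and edgeR adjusted p of 0.0264, 0.0307 and 0.0282. In that fit 600 of 14408 genes (4.16%) were called, and the remaining EV RV library was assumed to vary like the Tox RV pair. Without EV RV replicate 1, the values for *Il4* and *Il5* were -1.29 and -1.5 (edgeR adjusted p 0.271 for each) and that of *Il13* was 0.13 (edgeR adjusted p 0.942). *Il3* went from 0.62 to -0.17 without EV RV replicate 1, to 2.63 without EV RV replicate 2, to -0.76 without Tox RV replicate 1 and to 1.31 without Tox RV replicate 2. *Csf2* behaved alike, at -0.08, 1.75, -0.68 and 1.22 in the same order, and none of these values for *Il3* or *Csf2* passed the test. *Gata3* was lower in Tox RV in all 4 such fits, at -0.70 to -0.25, with a smallest edgeR adjusted p of 0.0532 without EV RV replicate 2.

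**Figure D2:**
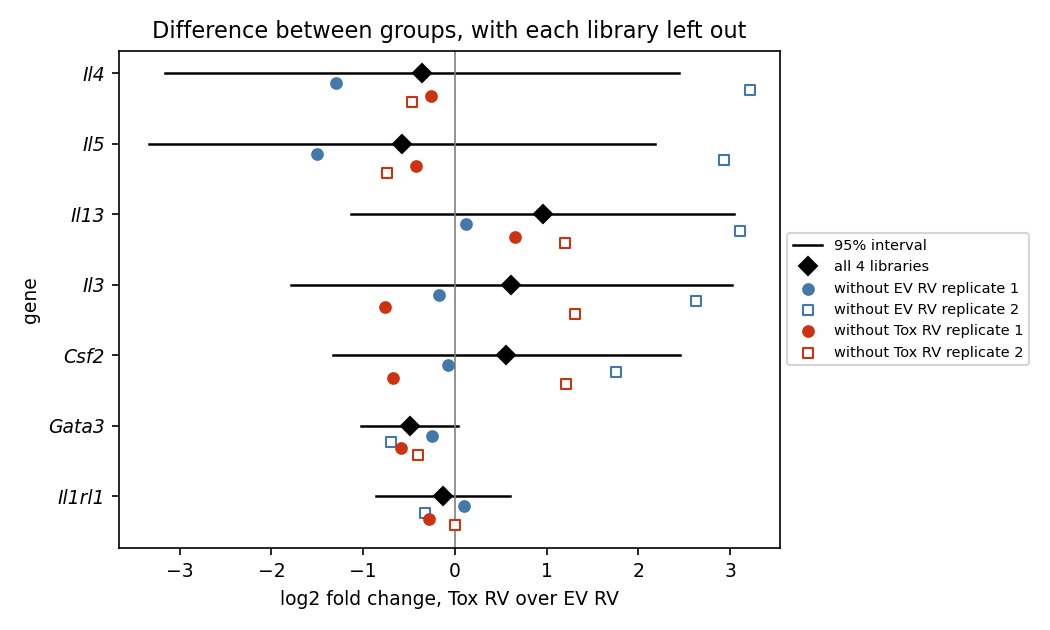
Log2 fold change, Tox RV over EV RV, of each tested gene (black diamond, all 4 libraries, with its 95% interval) and with each library left out (blue for EV RV, red for Tox RV, filled for replicate 1 and open for replicate 2). The points without EV RV replicate 2 lie near 3 for *Il4*, *Il5* and *Il13*, while all points of *Gata3* are below 0.

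The 5 cytokine genes of chromosome 11 differed more between the replicates of one group than between the groups. EV RV replicate 2 exceeded replicate 1 by 22.6-fold for *Il4*, 21.6-fold for *Il5*, 7.85-fold for *Il13*, 6.97-fold for *Il3* and 3.54-fold for *Csf2* (CPM). Ranked from the lowest by EV RV replicate 1 over replicate 2 among the 14143 genes tested, *Il4* was number 3, *Il5* number 4, *Il13* number 9, *Il3* number 12 and *Csf2* number 41. All 5 were more than 3-fold lower in EV RV replicate 1, as were 1.39% of all genes tested, and all but *Csf2* were more than 4-fold lower, as were 0.877%. *Gata3* and *Il1rl1* went the other way, 1.38-fold and 1.36-fold higher in EV RV replicate 1. Between the Tox RV libraries, *Il3* and *Csf2* differed by 4.19-fold and 3.69-fold, both higher in replicate 1, and ranked number 3 and number 4 of all genes tested in that direction. Only 1.65% of the genes differed by more than 3-fold between the Tox RV libraries. *Il4* and *Il5* were within 1.16-fold and 1.26-fold there, and *Il13* within 1.45-fold.

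The order of the genes by TPM, a level per transcript length, changed with the library. *Gata3* was highest in EV RV replicate 1, *Il4* in EV RV replicate 2, *Csf2* in Tox RV replicate 1 and *Il13* in Tox RV replicate 2. *Il13* exceeded *Il4* in 3 of 4 libraries and *Csf2* exceeded *Il3* in 4 of 4. Some ratios held across libraries while the levels moved. The level of *Il4* over that of *Il5* was 7 and 7.48 in EV RV against 9.04 and 8.36 in Tox RV, although each gene ranged more than 20-fold. By contrast *Il4* over *Il13* was 0.372 and 1.08 in EV RV against 0.316 and 0.530 in Tox RV. The level of *Il13* over that of *Gata3* was 0.214 in EV RV replicate 1 and 2.32, 3.36 and 2.61 in EV RV replicate 2 and the Tox RV libraries.

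In mm10 with GENCODE annotation, *Il4* spans chr11:53602982-53618669 on the minus strand and *Il13* chr11:53631324-53634702 on the minus strand, the next gene along. *Il5*, at chr11:53720794-53725106 on the plus strand, starts 86.1 kb from *Il13*, and the DNA repair gene *Rad50*, which holds the locus control region of the cluster, lies between them. *Csf2* (chr11:54247271-54249667) and *Il3* (chr11:54265303-54267277), both on the minus strand, start 17.6 kb from each other, and *Csf2* starts 528.9 kb from *Il5*. *Gata3* is at chr2:9857078-9890034 (minus), *Il9* at chr13:56479277-56482246 (minus) and *Il1rl1* at chr1:40429570-40465415 (plus). *Il5*, *Csf2* and *Gata3* overlap annotated genes on the opposite strand, and *Gata3* also overlaps *9230102O04Rik* on its own strand. Whether strand was used in counting is not given in the sources used here.

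As a set, the other genes of the cluster differed less between the EV RV replicates than the 5 cytokine genes. Of 16 neighbouring genes 13 were tested, and 9 of these were lower in EV RV replicate 1. More than 2-fold lower were 3 of the 13, against 304 of all 14143 genes tested. The median log2 difference of the 13, EV RV replicate 1 minus replicate 2, was -0.48. It was -2.91 for the 5 cytokine genes and 0.00 for all genes tested. *Rad50* was at 51.1 and 101 CPM in EV RV and 74.0 and 92.4 CPM in Tox RV, and *Kif3a*, a kinesin motor gene beside *Il4*, at 12.5 and 29.2 CPM against 13.2 and 18.7 CPM. *Acsl6*, a fatty acid ligase gene next to *Il3*, was at 2.01 and 6.42 CPM against 2.31 and 2.33 CPM. EV RV replicate 2 exceeded replicate 1 by 3.19-fold for *Acsl6*, near the 3.54-fold of *Csf2*. The interferon-responsive factor *Irf1*, next to *Il5*, differed little within groups, at 394 and 377 CPM in EV RV and 349 and 341 CPM in Tox RV. The chaperone gene *Hspa4* was at 275 and 383 CPM in EV RV and 395 and 401 CPM in Tox RV. None of the 13 passed the edgeR test between the groups, and their median log2 fold change was -0.03.

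**Figure D3:**
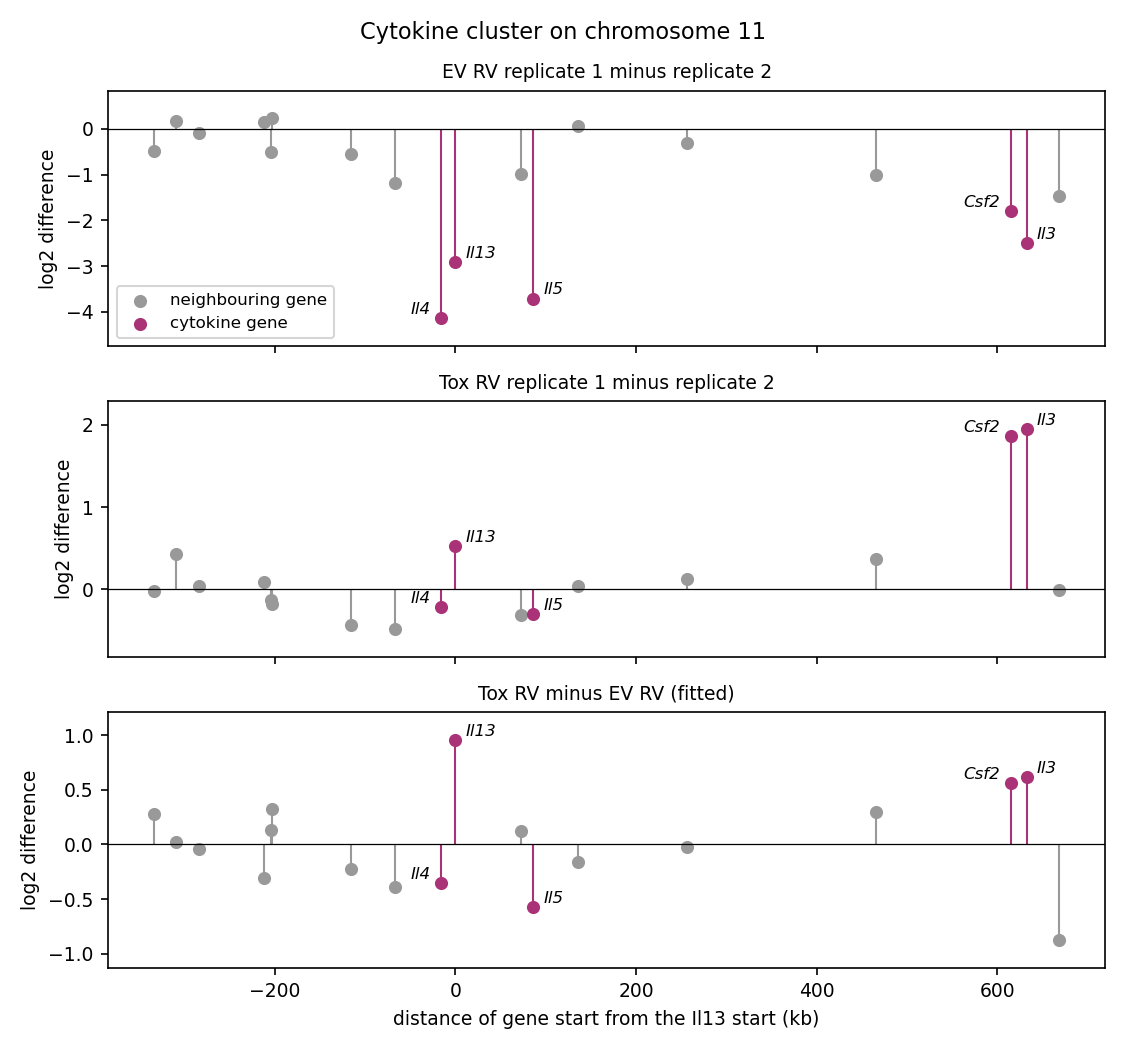
Genes of the chromosome 11 cytokine cluster by distance of their start from that of *Il13* (kb), with the log2 difference between the EV RV replicates (top), between the Tox RV replicates (middle) and between the groups (bottom). In the top panel *Il4*, *Il5* and *Il13* reach -4.14, -3.71 and -2.91 while the neighbours (grey) stay between -1.46 and 0.23, and in the middle panel *Il3* and *Csf2* stand apart at 1.95 and 1.86.

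The genes most like each member in pattern were those with the smallest root mean square difference of centred log2 CPM over the 4 libraries, among 11941 genes. *Il4* and *Il5* were each other's nearest gene (0.24). After it came *Ifng*, the Th1 cytokine (0.54), and *Mmp10*, a matrix metalloproteinase gene (0.55), for *Il4*, and *Mmp10* (0.34) and *Gm14308* (0.45) for *Il5*. *Il13* was nearest to *Ifng* (0.36), to *Havcr2*, which encodes the inhibitory receptor TIM-3 (0.41), and to *Spsb1* (0.41). *Ifng* was at 10.9 and 107 CPM in EV RV and 96.0 and 47.4 CPM in Tox RV, so its low library was EV RV replicate 1 as well. *Il10* and *Il24*, the only genes ranked below *Il4* by the EV RV replicate difference, were at 1.16 and 53.4 CPM and at 4.27 and 132 CPM in EV RV and at 89.6 and 69.1 CPM and at 143 and 125 CPM in Tox RV. Both were named after their values were seen. *Gata3* was nearest to *Eif5b*, *Slc9a8* and *Tgfbrap1* (0.018, 0.019 and 0.020). The 4 libraries share depth and scaling across genes, and these distances are descriptions of 4 points.

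Genes that are read out early after T cell receptor engagement were not lower as a set in EV RV replicate 1, and most lay the other way. Of 18 such genes, 4 were lower in EV RV replicate 1 than in replicate 2, against 7029 of all 14143 genes tested. The median log2 difference of the 18 was 0.44 (EV RV replicate 1 minus replicate 2), against 0.00 for all genes tested. Furthest that way was *Egr3*, at 56.6 and 15.2 CPM in EV RV and 40.5 and 24.0 CPM in Tox RV. *Nr4a3* was next, at 59.6 and 20.2 CPM against 38.8 and 25.5 CPM. Both were named after their values were seen. Between the groups the 18 genes had a median log2 fold change of -0.02. Of the 18, 2 were higher and 2 lower in Tox RV at an unadjusted edgeR p under 0.05, and none after adjustment. Over all genes tested, 1.07% were higher and 2.55% lower at that p. The costimulatory receptor gene *Tnfrsf9* (4-1BB) was at 726 and 824 CPM in EV RV and 1180 and 1010 CPM in Tox RV (log2 fold change 0.50, unadjusted edgeR p 0.030). *Nr4a2*, an orphan nuclear receptor gene, was at 14.0 and 13.1 CPM against 23.1 and 18.9 CPM. The AP-1 subunit gene *Jun* was at 155 and 101 CPM in EV RV and 68.1 and 66.9 CPM in Tox RV (log2 fold change -0.92, unadjusted edgeR p 0.0092). The fourth of these genes, *Myc*, was at 226 and 166 CPM against 147 and 117 CPM.

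The receptors for these cytokines and the steps from IL-4 and IL-33 to the nucleus were read from lists of pathway genes. The 9 lists held 138 genes besides the 8, of which 122 were tested, and *Gata3* was in 2 of the lists. None passed the adjusted edgeR test, where 0% of all genes did. At an unadjusted edgeR p under 0.05, 4 were higher and 7 lower in Tox RV, which is 9.0% against 3.62% of all genes tested. The lists were chosen with earlier results of these data known, so a share above that of all genes cannot be read as an enrichment. Without EV RV replicate 2, in a fit on a single EV RV library, large log2 fold changes of list genes went both ways. *Jun*, *Il18r1*, *Runx3* and *Tgfb1* were at -1.19, -1.16, -1.16 and -1.76. *Ifng*, *Il24* and *Il10* were at 2.72, 4.98 and 6.10. Of 11 cytokine receptor genes 10 were tested, and their median log2 fold change was -0.16, and there were 5 whose groups did not overlap (3 higher and 2 lower in Tox RV), against 36.0% of all genes tested. The IL-4 receptor chain gene *Il4ra* was at 361 and 776 CPM in EV RV and 490 and 531 CPM in Tox RV, and was named after its values were seen. *Il2rg*, the shared gamma chain gene, was at 392 and 225 CPM against 303 and 252 CPM. *Il5ra* was lower in both Tox RV libraries (9.81 and 5.81 CPM against 5.69 and 4.61 CPM). *Il1rap*, the partner chain of ST2, was higher in both (13.9 and 16.5 CPM against 17.4 and 19.3 CPM), as was *Il3ra* (13.9 and 10.8 CPM against 14.3 and 14.0 CPM).

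Of 19 genes of IL-4 and IL-33 signalling 18 were tested, and the median log2 fold change was -0.19. *Ptpn6*, which encodes the phosphatase SHP-1, was at 218 and 182 CPM in EV RV and 335 and 274 CPM in Tox RV (log2 fold change 0.60, unadjusted edgeR p 0.0222, adjusted 0.897). *Irak4*, a kinase gene downstream of ST2, was at 14.9 and 12.2 CPM against 21.3 and 17.4 CPM, and *Stat5b*, which carries the IL-2 signal that Th2 cells need, at 259 and 245 CPM against 197 and 198 CPM. The feedback inhibitor gene *Socs1* overlapped, at 124 and 183 CPM against 136 and 135 CPM.

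Among 20 transcriptional activators of the Th2 program, all tested, the median log2 fold change was -0.17, and 3 were lower in Tox RV at an unadjusted p under 0.05 by edgeR, as were 2.55% of all genes tested. *Notch2*, a receptor whose signal acts on *Gata3* and *Il4*, was at 404 and 323 CPM in EV RV and 272 and 253 CPM in Tox RV. The AP-1 family gene *Fosl2* was at 57.0 and 45.4 CPM against 38.5 and 23.6 CPM. *Bhlhe41*, a repressor gene active in Th2 cells, was at 6.35 and 3.10 CPM against 1.30 and 2.02 CPM, and lay below the level at which genes were to be named. The chromatin genes *Satb1*, at 1341 and 1581 CPM against 1114 and 1262 CPM, and *Mbd3*, at 59.6 and 44.8 CPM against 39.9 and 38.7 CPM, did not pass at an unadjusted p of 0.05.

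Of 14 antagonists of GATA3 or of the Th2 fate, 13 were tested, and the median log2 fold change was -0.05, with none at an unadjusted p under 0.05. *Eomes* was at 79.7 and 109 CPM in EV RV and 72.1 and 71.1 CPM in Tox RV. *Runx1* was at 64.2 and 62.3 CPM against 50.5 and 56.2 CPM, and *Runx3*, which with T-bet silences *Il4*, at 131 and 49.8 CPM against 64.3 and 52.4 CPM. *Dnmt1*, the maintenance DNA methyltransferase gene, was at 338 and 449 CPM against 352 and 502 CPM. Of the 6 GATA genes 3 were tested, *Gata3* among them, and *Gata1*, the factor of erythroid and mast cells, was at 3.08 and 4.45 CPM against 2.89 and 3.30 CPM.

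Among 19 further genes of Th2 cells, receptor and surface genes for the most part and with *Gata3* counted among them, 15 were tested, and the median log2 fold change was -0.08. *Il18r1*, the IL-18 receptor gene, which Th1 cells carry more of, was the 1 gene with an unadjusted p under 0.05, at 30.7 and 17.7 CPM in EV RV and 14.5 and 12.9 CPM in Tox RV (log2 fold change -0.82, edgeR p 0.033, adjusted 0.897). The costimulatory receptor gene *Tnfrsf4* (OX40) was at 151 and 296 CPM against 216 and 208 CPM. *Ecm1*, which Th2 cells use to leave lymph nodes, was at 23.9 and 25.8 CPM against 20.3 and 18.7 CPM. Of 17 other T cell cytokine genes 14 were tested, and the median log2 fold change was 0.03. *Lta*, which encodes lymphotoxin, was at 50.2 and 50.8 CPM in EV RV and 101 and 71.5 CPM in Tox RV (log2 fold change 0.77, unadjusted edgeR p 0.0129, adjusted 0.897), and *Ebi3*, a subunit gene of IL-27 and IL-35, at 12 and 8.58 CPM against 6.99 and 6.24 CPM. *Tgfb1* was at 346 CPM in EV RV replicate 1 and at 106, 111 and 92.3 CPM in the other libraries, so here too EV RV replicate 1 stood apart, in the opposite direction to the Th2 cytokines.

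**Figure D4:**
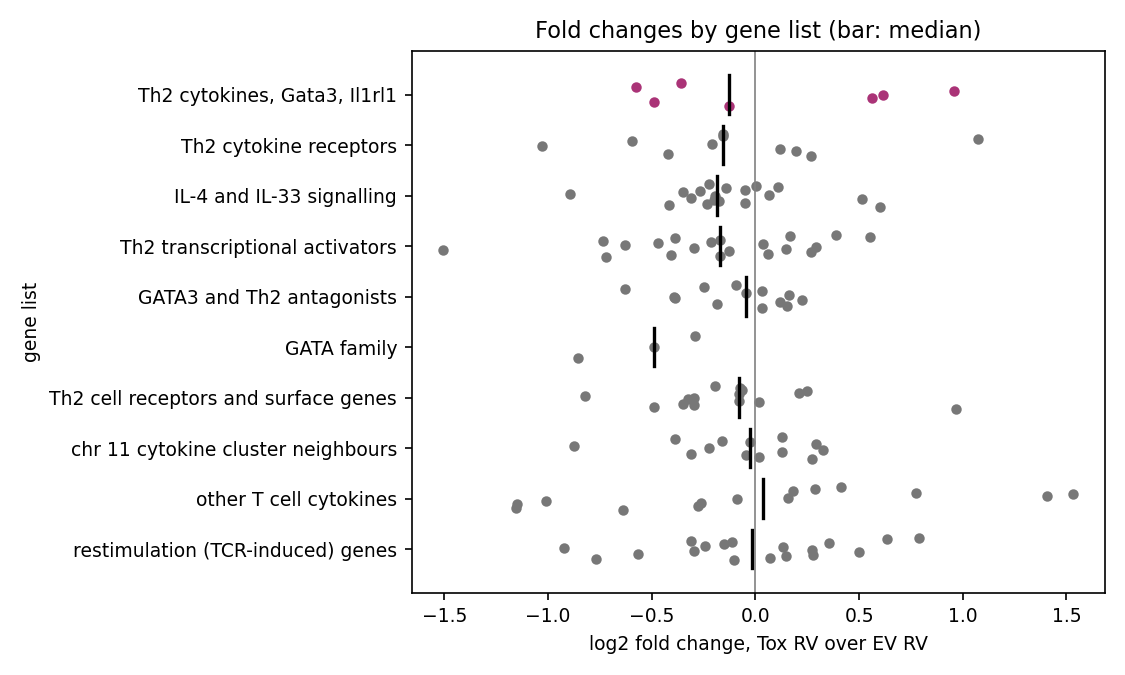
Log2 fold change, Tox RV over EV RV, of each tested gene (point) in the Th2 set (purple) and in the 9 lists of related genes (grey), with the median of each list as a bar. The medians lie between -0.49 (the 3 GATA genes) and 0.03, and that of all genes tested is 0.00.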

How the data were processed

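RNA-seq was carried out on sorted GFP+ CD4 T cells, with 2 biological replicates per group, and the libraries were assigned to groups by their labels. The deposited expected counts are the estimates per gene that the authors made with RSEM after FastQC and alignment to mm10; the submitters' processing notes list Bowtie, Bowtie2 and DESeq2 too, and strand use is not given in the sources used here. The deposited TPM values are RSEM's levels per transcript length, and the deposited FPKM values were not used. A further deposited table of the series, named as TPM, was not used here.

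The expected counts were rounded, filtered with edgeR's filterByExpr at a minimum count of 10, scaled by TMM and tested across all 14143 remaining genes by edgeR 4.0.16 (R 4.3.3, quasi-likelihood, Tox RV against EV RV, Benjamini-Hochberg adjustment, threshold 0.05). CPM values are TMM-scaled. DESeq2 1.42.0 and limma 3.58.1 served as alternatives, with other scalings and filters, a replicate term and each library left out, and the scripts were tested on simulated data. The common biological coefficient of variation was 0.232. Within the lists the text names the member with the highest mean TPM and up to 3 with the smallest unadjusted p at a mean TPM of 1 or more, any neighbour on chromosome 11, and the 3 genes nearest in pattern to *Il4*, *Il5*, *Il13* and *Gata3*. *Il10*, *Il24*, *Il4ra*, *Bhlhe41*, *Myc*, *Egr3* and *Nr4a3* were added after their values were seen. The genes and lists were chosen with earlier results of these data known. The edgeR p-values rest on the spread between 2 libraries per group, drawn toward the spread of other genes (2 residual degrees of freedom, 3.77 shared across genes).

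Gene positions and the *Il1rl1* transcript lengths of 5302 and 2661 bases are from GENCODE vM21 (mm10), and upstream sequences and their gene starts from RefSeq (GRCm38.p6).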

Additional observations from a re-analysis of the deposited data

How the results depend on the processing

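With all 4 libraries edgeR called 0 genes (0 also at an adjusted p below 0.10, and 512 at an unadjusted p under 0.05). DESeq2 called 22, edgeR with no filter 22 and edgeR with a replicate block 16. None of these calls was among the genes followed here (8 tested by DESeq2 and with no filter, 7 otherwise). Leaving out 1 library gave 1 to 600 genes called (600 without EV RV replicate 2), 0 to 3 of the 7 genes and 0 to 12 genes of the lists. The replicate numbers were not taken to pair libraries in the main test. Whether an EV RV and a Tox RV library of the same number share a mouse is not given in the sources used here. The correlation of the replicate differences between groups was 0.38 across 14143 genes, and pairing was not tested. With the block, *Il13* was at 1.56 (edgeR adjusted p 0.474). *Gata3* stayed below 0 and *Il13* above 0 in all settings.

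*Il4* and *Il5* turned positive with the block (0.77 and 0.43) and with limma on log2(TPM + 1) (0.80 and 0.25) and log2(TPM + 0.1) (0.87 and 0.56), and ran from -1.29 to 3.22 and from -1.5 to 2.94 with 1 library left out, where *Il13* ran from 0.13 to 3.11. The same omission gave -0.76 to 2.63 for *Il3*, -0.68 to 1.75 for *Csf2* and -0.33 to 0.10 for *Il1rl1*, which was 0.0037 when scaled by library totals. That scaling moved the median of all genes to 0.12 and put *Gm14308* at 0.00019 and *Tnfrsf4* at 0.015. With the block *Gm14308* was 0.46, *Tnfrsf4* 0.0014 and *Mmp10* 0.046. By limma *Gm14308* was 0.13 and 0.41 at the pseudocounts 1 and 0.1, and *Mmp10* 0.13 at 0.1. Other genes that changed sign with 1 library left out were *Gm14308* (-0.86 to 2.00), *Mmp10* (-1.66 to 2.37), *Tnfrsf4* (-0.49 to 0.49), *Ifng* (-0.58 to 2.72), *Spsb1* (-0.17 to 2.43), *Il2rg* (-0.49 to 0.29), *Il4ra* (-0.61 to 0.51), *Socs1* (-0.44 to 0.13), *Dnmt1* (-0.16 to 0.35), *Runx3* (-1.16 to 0.22), *Gata1* (-0.53 to 0.011), *Rad50* (-0.29 to 0.71), *Kif3a* (-0.88 to 0.36) and *Acsl6* (-1.48 to 0.21). The cause of these changes was not tested. At 0 to 3 counts per library, *Il9* could not be compared at this depth.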
